A study of Mus musculus with 24 samples.

Results

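The genes described here encode amino acid and neurotransmitter transporters of the Slc1, Slc6, Slc7, Slc36, Slc38 and Slc43 families, measured in the mouse hippocampus after a night of corticosterone. A gene was taken when a probe on the array carried an accession whose symbol belongs to 1 of these families, and each gene was represented by its brightest probe. The rule used no effect of treatment. It gave 59 of the 23787 genes named on the array, with 84 probes in all, and 22 of the genes had 2 or more probes. By family these were 7 Slc1, 19 Slc6, 15 Slc7, 4 Slc36, 11 Slc38 and 3 Slc43 genes.

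The animals were 48 male Swiss-Webster mice of an outbred stock, 12 weeks of age, kept in single cages. All drank water that held 0.45% hydroxypropyl-β-cyclodextrin, which keeps the steroid in solution. Corticosterone-treated mice had 100 µg/ml corticosterone in it during the 12 h dark phase, and control mice had the vehicle alone. Hippocampi were taken in the first, the fifth or the ninth hour of the light phase, the resting period of mice, from 8 control and 8 corticosterone-treated animals per hour, each animal being 1 sample. RNA of 1 control animal (Cy3) and 1 corticosterone-treated animal (Cy5) shared each of the 24 arrays, which lay on 3 slides. Slides 1, 2 and 3 held 2, 3 and 3 arrays of the first and of the fifth hour, and 4, 2 and 2 of the ninth. Control mice were brothers of treated mice, and the sources used here do not say whether the 2 animals of an array were brothers. Dyes were not swapped, so a constant dye bias of a probe enters every comparison of treated with control animals and cannot be told apart from treatment there, whereas it cancels in comparisons between hours. Differences between arrays and slides do enter comparisons between hours within a treatment.

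Transporters of these families move amino acids, their derivatives and transmitters across cell membranes. Slc1 and Slc6 proteins use the sodium gradient to clear glutamate, GABA, glycine and monoamines from the extracellular space and to take up taurine, creatine and proline. Slc38 proteins carry glutamine between astrocytes and neurons, where it is the precursor of glutamate and GABA. Many Slc7 proteins are light chains that work as exchangers together with a heavy chain, and Slc36 and Slc43 proteins carry small and large neutral amino acids.

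Between 60.8 and 67.2% of probes in Cy3, and between 64 and 73.5% in Cy5, were well above background on an array. Of the 59 transporter genes, 41 had a mean signal intensity of 50 or more over all 48 channels and 18 lay under it. Each of the 6 neuronal and 6 hippocampal subfield markers was well above background in at least 1 animal of every group. Of 6 corticosteroid-responsive genes, 6 were higher in corticosterone-treated animals in the first hour, among them *Tsc22d3* (log2 fold change 0.93 ± 0.099, SE, n = 8 arrays, adjusted p = 5.8e-10 by limma). In the fifth hour 4 were higher, and in the ninth 1 was higher and 3 were lower, among them *Tsc22d3* (log2 fold change -0.58 ± 0.099, adjusted p = 3.9e-05). Because whole tissue was measured, fewer cells of a type and less RNA per cell cannot be told apart.

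The first question was which transporters differed between corticosterone-treated and control animals in each hour. In the first hour 16 of 59 genes passed an adjusted p of 0.05, 9 of them higher and 7 lower in treated animals. Of all 23787 named genes, 20.7% passed in that hour, 10.2% as higher and 10.4% as lower. In the fifth hour 21 transporter genes passed, 10 higher and 11 lower, against 20.8% of all genes (9.90% higher, 10.9% lower). In the ninth hour 10 passed, 6 higher and 4 lower, against 15.5% of all genes (8.32% higher, 7.16% lower). Taken without its sign, the log2 fold change of the 59 genes had a median of 0.17, 0.17 and 0.10 in the 3 hours, beside 0.12, 0.12 and 0.11 over all named genes.

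In at least 1 hour 23 transporter genes passed, against 32.9% of all named genes. Of the 41 genes with an intensity of 50 or more 18 did, where 35.1% of all genes that bright passed. The same direction in all 3 hours was seen in 8 genes, 6 higher and 2 lower, against 7.40% of all named genes. Another 7 passed in the first and the fifth but not the ninth hour, 5 of them lower. Without slide 2, 9 genes passed in the first hour. In the fifth, 12 passed without slide 1 and 9 without slide 3. In the ninth, 2, 6 and 6 passed without slide 1, 2 and 3.

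**Figure D1:**
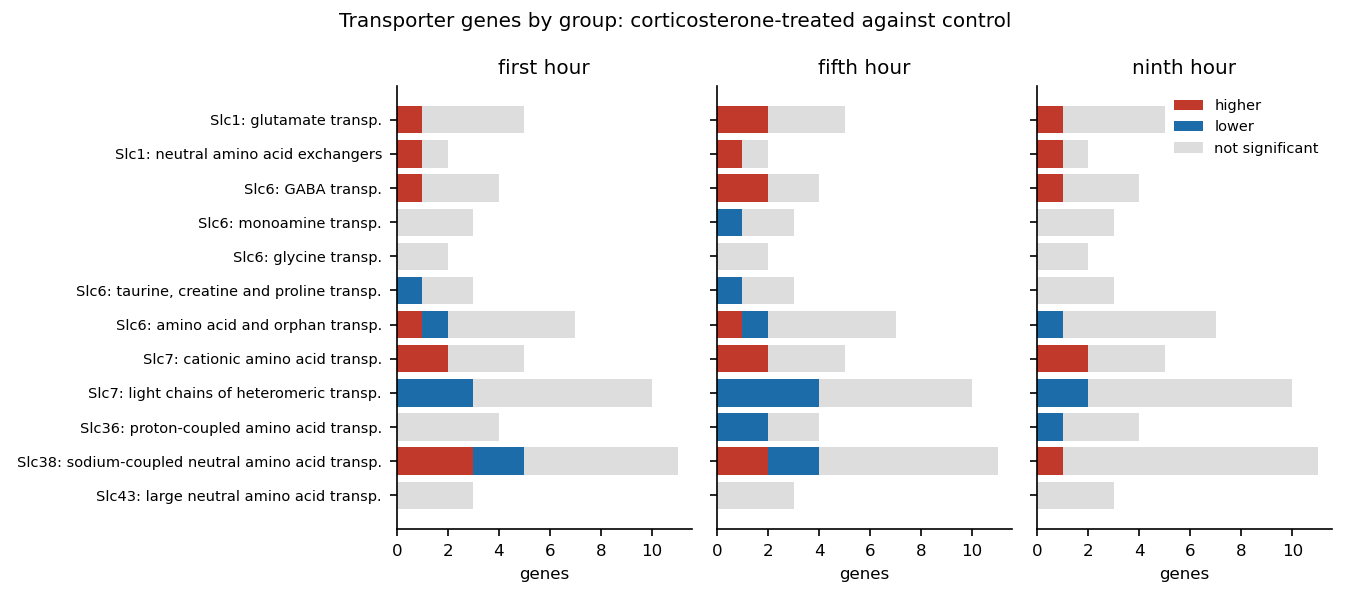
Number of transporter genes per group (x axis, genes; y axis, groups by family and cargo) that were higher, lower or not significant in corticosterone-treated animals in the first, the fifth and the ninth hour (adjusted p under 0.05, 8 arrays per hour). Significant light chains of heteromeric transporters were all lower, significant cationic amino acid transporters were all higher, and the Slc38 group held both directions in the first hour (3 higher, 2 lower).

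**Figure D2:**
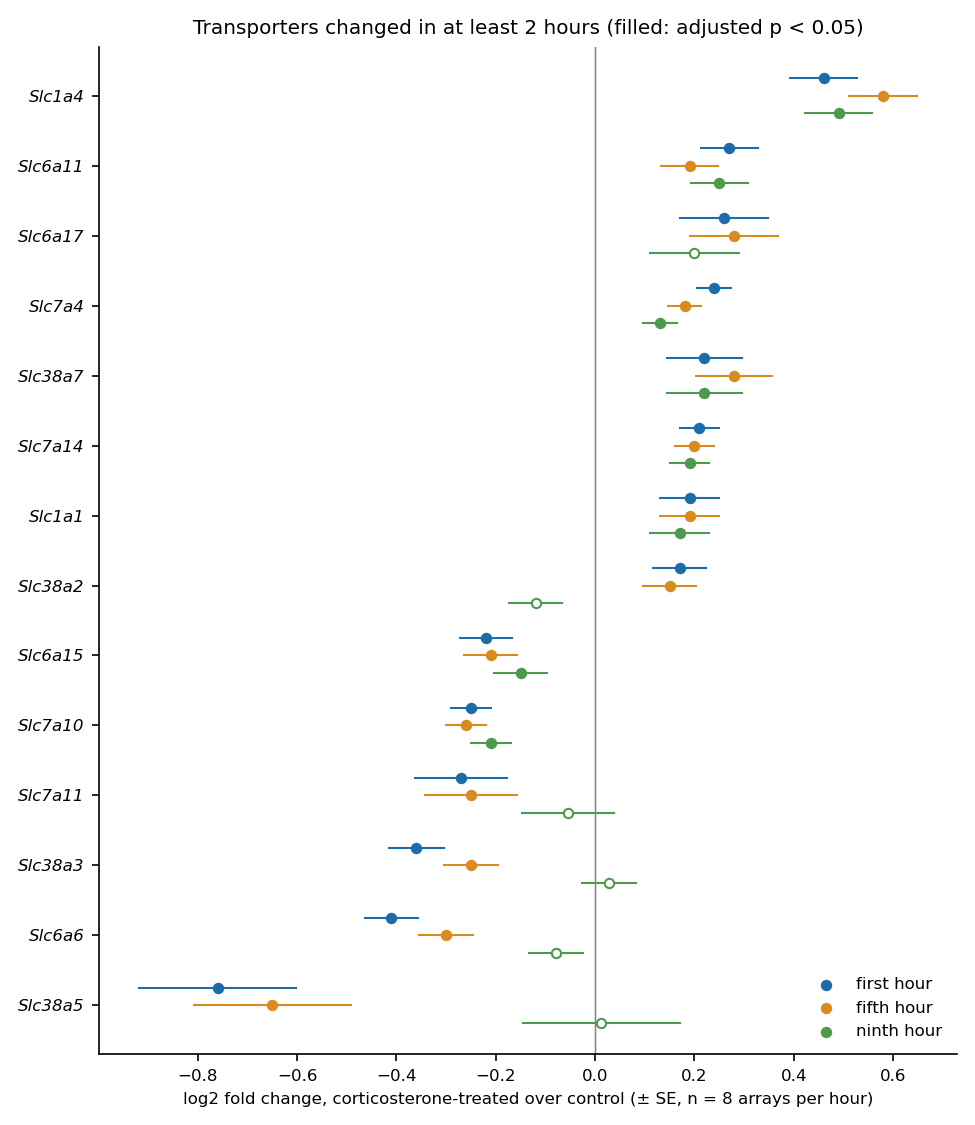
Log2 fold change of corticosterone-treated over control animals (x axis, ± SE, n = 8 arrays per hour) for the transporter genes with an intensity of 50 or more that passed in at least 2 hours (y axis, ordered by the first hour). Filled points passed an adjusted p of 0.05; *Slc38a5*, *Slc6a6* and *Slc38a3* lie left of 0 in the first and the fifth hour and near 0 in the ninth, and *Slc1a4* lies between 0.46 and 0.58 in every hour.

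Among the glutamine carriers of the Slc38 family, the system N members *Slc38a3* and *Slc38a5* were lower in treated animals in the first and the fifth hour and at the control level in the ninth. *Slc38a3* encodes SNAT3, an astrocytic carrier that releases glutamine. Its signal in the first hour ran from 776 to 928 (median 862) in control animals and from 585 to 758 (median 662) in treated animals, without overlap. The log2 fold change was -0.36 ± 0.057 (SE, n = 8 arrays, adjusted p = 5.1e-06), lower on 8 of 8 arrays. In the fifth hour control animals ran from 903 to 1168 (median 1007) and treated animals from 769 to 1057 (median 798), which overlapped, with a log2 fold change of -0.25 ± 0.057 (adjusted p = 7.8e-04). In the ninth hour the ranges, 882 to 1119 in control and 922 to 1105 in treated animals, overlapped almost whole (log2 fold change 0.028 ± 0.057, adjusted p = 0.78). On each slide the mean log2 ratio was below 0 in the first hour (-0.34, -0.41 and -0.32) and in the fifth (-0.20, -0.43 and -0.11). Without slide 2 the fifth hour did not pass (log2 fold change -0.15, adjusted p = 0.16).

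*Slc38a5* encodes SNAT5, which carries glutamine, asparagine, histidine and serine. In the first and the fifth hour this gene had the largest fold change among the transporters with an intensity of 50 or more. In the first hour control animals ran from 211 to 821 (median 574) and treated animals from 137 to 557 (median 342), so the groups overlapped. The lowest control and the lowest treated value came from the same array. Within arrays the treated animal was lower on 8 of 8, and the log2 fold change was -0.76 ± 0.16 (1.70-fold lower, adjusted p = 2.7e-04). In the fifth hour control animals ran from 505 to 804 (median 675) and treated animals from 303 to 510.0 (median 433), which met only at the edge, with a log2 fold change of -0.65 ± 0.16 (adjusted p = 0.0012). In the ninth hour, 609 to 842 in control stood beside 592 to 932 in treated animals (log2 fold change 0.012 ± 0.16, adjusted p = 0.97). Slide means were -0.69, -0.56 and -1.01 in the first hour, and in the fifth they were below 0 on every slide, nearest to 0 on slide 2 (-0.34). Without slide 3 neither hour passed (adjusted p = 0.076 and 0.082).

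*Slc38a2* (SNAT2), a carrier of small neutral amino acids known to respond to amino acid shortage, was higher in treated animals in the first hour, at 3625 to 4676 (median 4101) against 3261 to 4204 (median 3635) in control animals. The groups overlapped, and the log2 fold change was 0.17 ± 0.056 (adjusted p = 0.018). It was 0.15 ± 0.056 in the fifth hour (adjusted p = 0.045, passing under 13 of 18 alternatives), and in the ninth -0.12 ± 0.056 (adjusted p = 0.11). Without slide 2 or slide 3 it passed in neither of the first 2 hours (0.10 in the first without slide 2), nor without slide 1 in the fifth. *Slc38a1* (SNAT1), its neuronal relative, showed no change at its brightest probe, with log2 fold changes of -0.031, 0.028 and -0.018 and adjusted p from 0.73 to 0.86. Its other 2 probes were higher in every hour, the brighter of them by 0.18, 0.26 and 0.27 on the log2 scale (adjusted p = 0.01, 2.3e-04 and 2.7e-04), so the probes of this gene disagree.

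Of the remaining Slc38 genes, *Slc38a7*, a lysosomal and neuronal glutamine carrier, was higher in all 3 hours (log2 fold change 0.22, 0.28 and 0.22, SE 0.078, adjusted p = 0.038, 0.007 and 0.039). Without slide 1, or without slide 3, it passed in no hour, and without slide 2 only in the fifth, whose log2 fold change was 0.44 without slide 2 and 0.16 without slide 3. The first hour also did not pass with a separate fit for each hour, nor the ninth with no offset or with the scanner software's processed signals. On replicate 8 of the first hour the treated animal was lower (359 against 416 in the control animal), and without that array the mean log2 ratio of the hour was 0.28, a value computed after the data were seen. *Slc38a8* was higher in the first hour on 8 of 8 arrays (log2 fold change 0.22 ± 0.076, adjusted p = 0.029), though not without slide 2 or slide 3, nor with the scanner software's processed signals. The second probe of *Slc38a8* did not pass in that hour. *Slc38a4*, a system A carrier, passed in no hour (log2 fold change -0.26, -0.22 and -0.11, adjusted p = 0.074, 0.14 and 0.5), and neither did *Slc38a6*, *Slc38a9*, *Slc38a10* and *Slc38a11*.

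**Figure D3:**
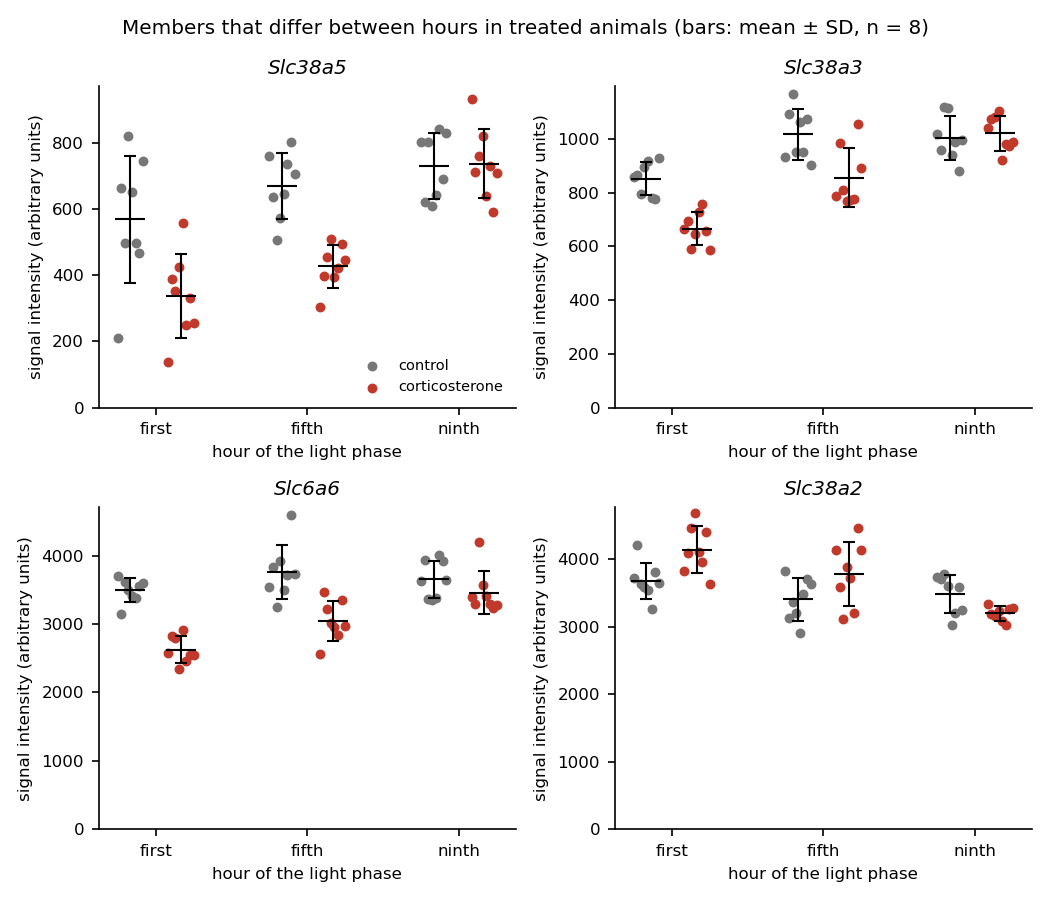
Signal intensity (y axis, arbitrary units) of each animal for *Slc38a5*, *Slc38a3*, *Slc6a6* and *Slc38a2* by hour of the light phase (x axis), control in grey and corticosterone-treated in red, with mean ± SD (n = 8 animals per group). For *Slc38a3* and *Slc6a6* the treated animals of the first hour lie below every control animal of that hour, and for *Slc38a5* the 2 groups have like means in the ninth hour (731 and 737).

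The taurine transporter *Slc6a6* (TauT) followed the course of the system N carriers. In the first hour control animals ran from 3151 to 3711 (median 3535) and treated animals from 2347 to 2910.3 (median 2561), without overlap. The log2 fold change was -0.41 ± 0.056 (adjusted p = 1.3e-07), lower on 8 of 8 arrays and on each slide (-0.34, -0.39 and -0.48). The fifth hour gave -0.30 ± 0.056 (adjusted p = 4.7e-05), with 3249 to 4596 in control and 2567 to 3467 in treated animals. In the ninth hour, at 3349 to 4007 and 3244 to 4206, the log2 fold change was -0.079 ± 0.056 (adjusted p = 0.34). A dimmer second probe of *Slc6a6* did not follow, with log2 fold changes of -0.03, 0.066 and 0.14 (adjusted p from 0.31 to 0.86).

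The creatine transporter *Slc6a8* lay at 7785 ± 459 (SD, n = 8) in treated and 7785 ± 319.7 in control animals of the first hour, and passed in no hour at this probe. The mean log2 ratio of that hour was -0.0012, and -0.033 without replicate 8, where the treated animal was at 8695 and the control animal at 7446. Its second probe was higher in the first (log2 fold change 0.24, adjusted p = 0.0013) and ninth hour (0.16, adjusted p = 0.046). The proline transporter *Slc6a7* passed in no hour at its brightest probe (adjusted p from 0.63 to 0.98).

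Among the genes for taurine and creatine synthesis, 3 of 4 were lower in the first hour, 3 in the fifth and 2 in the ninth, where 10.4, 10.9 and 7.16% of all named genes were lower. The list medians were -0.13, -0.17 and -0.13 beside -0.0039, -0.0035 and 0.0062 over all named genes. *Gatm*, which makes the creatine precursor, was lower by -0.22, -0.33 and -0.35 on the log2 scale (adjusted p = 0.038, 0.0022 and 0.0016). *Csad*, an enzyme of taurine synthesis, was lower by -0.12, -0.13 and -0.18 (adjusted p = 0.04, 0.028 and 0.0023). *Cdo1*, another enzyme of taurine synthesis, lay at 0.14, 0.12 and 0.074 (SE 0.057, adjusted p = 0.068, 0.13 and 0.4) and passed in no hour at its brightest probe. The study's authors, by contrast, list *Cdo1* among genes that differed in the first hour alone.

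The neutral amino acid exchanger *Slc1a4* (ASCT1), which carries alanine, serine, cysteine and threonine and takes part in L- and D-serine traffic in the brain, was higher throughout. In the first hour control animals ran from 1333 to 1612 (median 1483) and treated animals from 1584 to 2387 (median 2072), which overlapped only at the edge. In the fifth hour the ranges, 1230.5 to 1649 and 1856 to 2528, did not overlap. In the ninth they were 1253 to 1646 and 1618 to 2529. Treated exceeded control animals by 0.46, 0.58 and 0.49 on the log2 scale (SE 0.070 in each hour, adjusted p = 1.6e-06, 1.5e-08 and 1.3e-06), higher on 8 of 8 arrays in each hour, and slide means lay between 0.36 and 0.68 in all 3 hours.

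The start of *Slc1a4* is shown because it holds 1 match to TGATGNAA, the core of amino acid response elements, to which ATF4 and its partners are known to bind. The start of *Slc7a11*, a gene described further on, is shown beside it because it holds 2 such matches and moved the opposite way. Both are RefSeq promoters (GRCm38.p6, 250 bases before to 50 after the start), printed 5′ to 3′ on the gene's strand, with capitals for TGATGNAA or AGAACA on either strand. *Slc1a4* lies at chr11:20332664-20332963, minus strand, and the *Slc7a11* promoter at chr3:50443564-50443863, minus strand.
Slc1a4: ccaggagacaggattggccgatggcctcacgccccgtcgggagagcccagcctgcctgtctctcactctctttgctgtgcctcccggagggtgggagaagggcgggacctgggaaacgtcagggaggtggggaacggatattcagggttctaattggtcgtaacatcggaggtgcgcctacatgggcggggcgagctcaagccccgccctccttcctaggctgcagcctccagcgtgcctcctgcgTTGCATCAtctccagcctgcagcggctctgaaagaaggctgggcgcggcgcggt
Slc7a11: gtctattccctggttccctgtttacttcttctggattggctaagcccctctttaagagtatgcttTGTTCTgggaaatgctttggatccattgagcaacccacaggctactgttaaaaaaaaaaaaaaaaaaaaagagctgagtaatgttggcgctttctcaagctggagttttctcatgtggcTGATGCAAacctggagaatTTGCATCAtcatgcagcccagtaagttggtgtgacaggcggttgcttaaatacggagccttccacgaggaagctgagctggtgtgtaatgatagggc
The *Slc1a4* match begins 4 bases before the start, and those of *Slc7a11* begin 66 and 47 bases before it. TGATGNAA was found in 5 of 62 transporter promoters (8.06%), of 4 genes, and in 3.97% of all 32851 promoters. The remaining genes with a match, *Slc6a21* and *Slc7a7*, passed in no hour. Overlapping promoters of *Slc7a7* share a match, which is counted in each of them. AGAACA, the glucocorticoid receptor's hexamer, was in 13 of the 62 (21.0%) and in 6233 of all. The full palindrome, AGAACA, any NNN and TGTTCT, was in none of the 62 and in 3 of all promoters. Of the 59 genes 41 had a promoter in the table.

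Of the 5 glutamate transporters 1, 2 and 1 passed in the 3 hours, all as higher. *Slc1a2* (GLT-1), the main astrocytic carrier that clears synaptic glutamate, passed in no hour, at -0.02, -0.077 and -0.12 on the log2 scale (SE 0.062 in each hour, adjusted p = 0.86, 0.38 and 0.19). *Slc1a3* (GLAST), the other astrocytic carrier, passed in none either (0.11, 0.035 and 0.052, adjusted p = 0.066, 0.64 and 0.48). The neuronal *Slc1a1* (EAAC1), which also brings in cysteine, was higher in all 3 hours by 0.19, 0.19 and 0.17 (SE 0.061, adjusted p = 0.017, 0.016 and 0.047), at 7534 to 8522 in control and 6269.6 to 10086 in treated animals of the first hour. In that hour 1 treated animal, of replicate 8, lay below every control animal and the ranges overlapped. Without that array the mean log2 ratio was 0.27. The array had the highest median Cy5 spot signal of the 24 (160.5) and the highest share of Cy5 probes well above background (73.5%), whose part in these values was not tested. No slide could be left out without loss of the call in the ninth hour, nor slides 1 and 2 in the first, nor slides 1 and 3 in the fifth. The ninth hour also did not pass with slide as a block, in a test on log ratios, with no offset, with Aquantile normalization or on the authors' log2 ratios, nor the first with a separate fit for each hour or on the authors' log2 ratios. Both probes of *Slc1a1* passed in every hour. *Slc1a6* and the exchanger *Slc1a5* passed in no hour. *Slc1a7*, at an intensity of 47.1, was higher in the fifth hour (log2 fold change 0.25, adjusted p = 0.014).

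The GABA transporter *Slc6a11* (GAT3) of astrocytes was higher in treated animals in all 3 hours. It ran from 389.7 to 561 (mean 473) in control and from 499.9 to 631 (mean 570.4) in treated animals of the first hour. The groups overlapped, the treated animal was higher on 8 of 8 arrays, and the log2 fold change was 0.27 ± 0.059 (adjusted p = 3.8e-04). In the fifth and ninth hour it was 0.19 ± 0.059 (adjusted p = 0.014) and 0.25 ± 0.059 (adjusted p = 0.0018). The fifth hour rested on slide 3, whose mean was 0.37 beside 0.095 and 0.074 on the others, and without it the log2 fold change was 0.082 (adjusted p = 0.51). With a separate fit for each hour the fifth hour did not pass either. The ninth hour did not pass without slide 1 (adjusted p = 0.078). *Slc6a12* and *Slc6a13* passed in no hour.

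**Figure D4:**
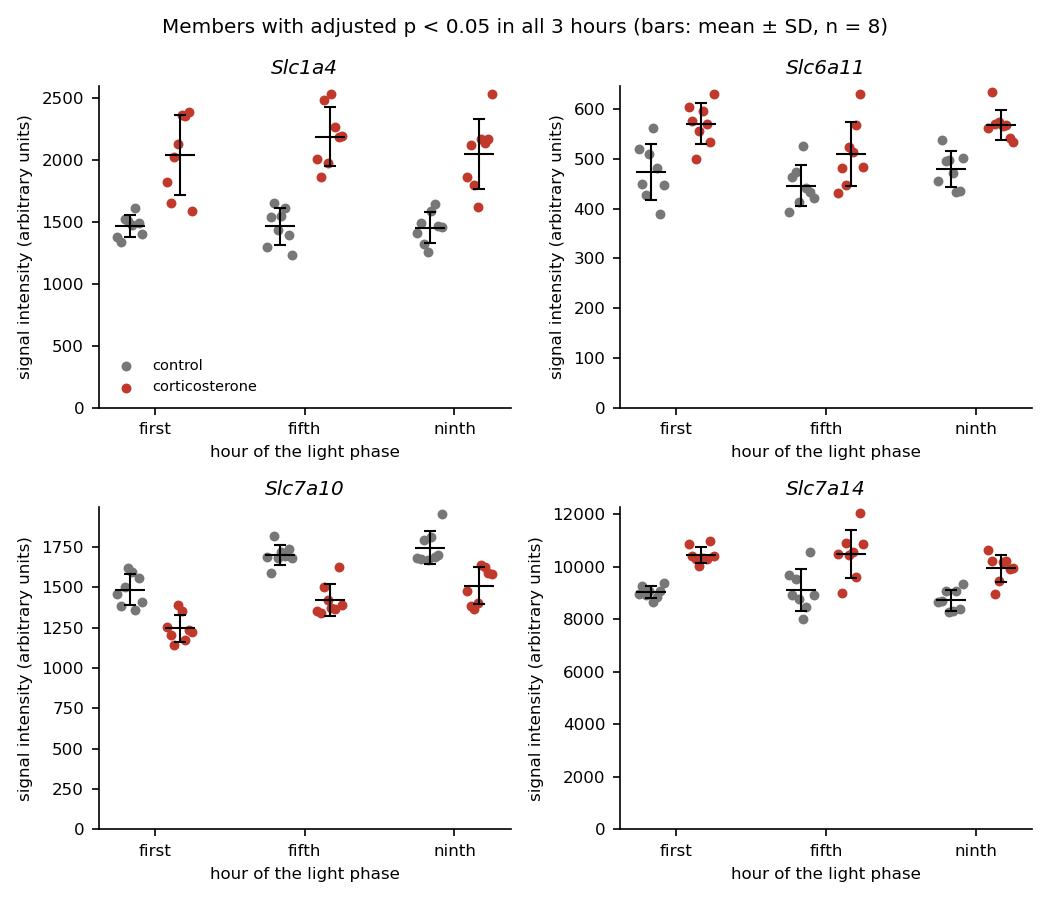
Signal intensity (y axis, arbitrary units) of each animal for *Slc1a4*, *Slc6a11*, *Slc7a10* and *Slc7a14* by hour of the light phase (x axis), control in grey and corticosterone-treated in red, with mean ± SD (n = 8 animals per group). The treated mean lies above the control mean in every hour for 3 genes and below it for *Slc7a10* (1247 against 1487 in the first hour).

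The glycine transporter *Slc6a9* (GlyT1) passed in no hour against control animals (log2 fold change -0.035, -0.005 and 0.11, adjusted p = 0.64, 0.96 and 0.093), and *Slc6a5* (GlyT2) was not well above background on any array. Of the monoamine transporters, *Slc6a2* (noradrenaline) and *Slc6a4* (serotonin) were not well above background on any array either, and they work in axons whose cell bodies lie outside the hippocampus. *Slc6a3* (dopamine), at an intensity of 46.5, was lower in the fifth hour, at a median of 39.6 in treated and 51.9 in control animals (log2 fold change -0.34 ± 0.088, adjusted p = 0.0053). Over the alternatives this fold change ran from -0.64 with the scanner software's processed signals to -0.15 on the authors' log2 ratios, so its size is not settled at this dim probe. Without slide 3 its adjusted p was 0.067.

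Of 7 other Slc6 genes, *Slc6a15*, a neuronal carrier of branched-chain amino acids and proline, was lower in all 3 hours. The log2 differences came to -0.22, -0.21 and -0.15 (SE 0.055 in each hour, adjusted p = 0.0016, 0.0025 and 0.035), and the signal of the fifth hour was 3609 to 4475 in treated and 3769.6 to 5783 in control animals. The first hour did not pass without slide 2 (adjusted p = 0.051), nor the fifth without slide 3 (0.12), nor the ninth with any 1 slide left out (up to 0.17) or with no offset. *Slc6a17*, a vesicular carrier of neutral amino acids, was higher in the first and the fifth hour (log2 fold change 0.26 and 0.28, SE 0.091, adjusted p = 0.032 and 0.02), at both of its probes. In the ninth hour the second probe passed (0.19, adjusted p = 0.028) and the brightest did not (0.20, adjusted p = 0.11). The other 5 passed in no hour, and 4 of them had an intensity under 50.

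In the Slc7 family, of 5 cationic amino acid transporters 2 were higher in every hour and none was lower. *Slc7a14*, a lysosomal relative of the arginine carriers, ran from 8666 to 9387 (median 9023) in control and from 10050.3 to 10989 (median 10368) in treated animals of the first hour, without overlap. The log2 differences came to 0.21, 0.20 and 0.19 (SE 0.041 in each hour, adjusted p = 5.6e-05, 9.6e-05 and 4.6e-04). Its second probe passed in the first and the fifth hour but not in the ninth (log2 fold change 0.13, adjusted p = 0.068). *Slc7a4*, whose substrate is not settled, ran from 6129 to 6848 in control and from 7044 to 8518 in treated animals of the first hour, also without overlap, and differed by 0.24, 0.18 and 0.13 on the log2 scale (SE 0.036 in each hour, adjusted p = 5.2e-07, 1.1e-04 and 0.0063). Without slide 1 the ninth hour did not pass (adjusted p = 0.18). The arginine carriers *Slc7a1*, *Slc7a2* and *Slc7a3* passed in no hour.

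Of the 10 light chains of heteromeric transporters none was higher in any hour, while 3, 4 and 2 were lower in the first, the fifth and the ninth hour, where 10.4, 10.9 and 7.16% of all named genes were lower. These counts hold *Slc7a12* in the first and the fifth hour and *Slc7a13* in the ninth, both not well above background on any array. *Slc7a10* (Asc-1), a neuronal exchanger of glycine, L-serine and D-serine, was lower on 8 of 8 arrays in each hour. Its signal was 1145 to 1389 in treated and 1363 to 1621 in control animals of the first hour, 1343 to 1629.8 and 1592 to 1818 in the fifth, and 1366 to 1642 and 1668 to 1956 in the ninth, where the groups did not overlap. On the log2 scale the differences came to -0.25, -0.26 and -0.21 (SE 0.042 in each hour, adjusted p = 4.2e-06, 2.4e-06 and 1.2e-04), and the ninth hour did not pass without slide 1 (adjusted p = 0.11).

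The cystine and glutamate exchanger *Slc7a11* (xCT), whose promoter is printed above, was lower in the first and the fifth hour by -0.27 and -0.25 (SE 0.094, adjusted p = 0.035 and 0.042). Its signal of the first hour was 223 to 383 in treated and 274 to 384 in control animals, and its second probe passed in neither hour. The first hour did not pass without slide 1 or 2, nor the fifth with any 1 slide left out, and they passed under 14 and 10 of 18 alternatives in all. *Slc7a5* (LAT1), a carrier of large neutral amino acids at the blood-brain barrier, was lower in the fifth hour, at 1456 to 2463 against 2031 to 2572 (log2 fold change -0.19 ± 0.073, adjusted p = 0.042), though not without slide 1 or slide 3, with no offset, with Aquantile normalization, with the scanner software's processed signals or with a separate fit for each hour. *Slc7a8* (LAT2) passed in no hour and varied widely between animals (895 to 2725 in control animals of the first hour). For *Slc7a12* and *Slc7a13* no fold is given. *Slc7a6*, *Slc7a7*, *Slc7a9* and *Slc7a15* passed in no hour.

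The small families added little. Of the Slc36 proton-coupled carriers, *Slc36a4* was lower in the fifth hour (log2 fold change -0.21 ± 0.067, adjusted p = 0.014). *Slc36a2*, well above background on 1 or 2 arrays of a group, passed in the fifth and ninth hour, and *Slc36a1* and *Slc36a3* in none. None of the 3 Slc43 genes passed in any hour, with 1, 0 and 0 at an unadjusted p under 0.05.

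The next question was whether the effect of corticosterone differed between hours, where a constant dye bias cancels. Between the first and ninth hour it differed for 3 of 59 transporters, against 1.46% of all named genes. For *Slc38a3* the effect rose by 0.39 ± 0.081 on the log2 scale (adjusted p = 0.0028), for *Slc6a6* by 0.33 ± 0.079 (adjusted p = 0.01), and for *Slc38a2* it fell by 0.29 ± 0.079 (adjusted p = 0.036). The effect on *Slc38a5* differed by 0.77 ± 0.22, which did not pass (adjusted p = 0.073). With 1 slide left out, 0 to 1 of the 59 genes passed. The difference for *Slc6a6* also did not pass in a test on log ratios, which sets the 2 animals of an array directly against each other, or on the authors' log2 ratios, nor that for *Slc38a2* with no offset or with the scanner software's processed signals. Between the first and the fifth hour no transporter passed and 0 had an unadjusted p under 0.05, and between the fifth and ninth hour none passed and 6 had an unadjusted p under 0.05.

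In control animals 1 transporter differed between the first and ninth hour, against 0.803% of all genes. This was *Slc7a10*, which was higher in the ninth hour by 0.23 ± 0.049 (adjusted p = 0.0039), at 1668 to 1956 against 1363 to 1621 in the first hour, without overlap. Without slide 1 or slide 3 it did not pass. In corticosterone-treated animals 8 transporters differed between the same hours, 5 higher and 3 lower in the ninth hour, against 6.08% of all genes. The number of passing genes in the 2 treatments was not compared by a test.

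Higher in the ninth hour in treated animals were *Slc38a5* by 1.22 ± 0.18 (adjusted p = 3.4e-06), *Slc38a3* by 0.62 ± 0.067 (adjusted p = 1.9e-09), *Slc6a6* by 0.40 ± 0.065 (adjusted p = 2.0e-05), *Slc7a10* by 0.28 ± 0.049 (adjusted p = 4.9e-05) and *Slc6a9* by 0.20 ± 0.057 (adjusted p = 0.022, and not with any 1 slide left out). Lower were *Slc38a2* by -0.37 ± 0.065 (adjusted p = 6.2e-05), *Slc7a4* by -0.21 ± 0.043 (adjusted p = 3.6e-04) and *Slc38a6*, an Slc38 carrier of less settled role, by -0.52 ± 0.13 (adjusted p = 0.0063). Without slide 3 *Slc38a6* did not pass (adjusted p = 0.32), nor *Slc7a4* without slide 2 (adjusted p = 0.052). In control animals the same differences were 0.45 ± 0.18 for *Slc38a5*, 0.23 ± 0.067 for *Slc38a3*, 0.063 ± 0.065 for *Slc6a6*, -0.077 ± 0.065 for *Slc38a2* and -0.26 ± 0.13 for *Slc38a6*, none of which passed (adjusted p from 0.077 to 0.80). Without replicate 1 of the first hour, which held the lowest *Slc38a5* value of both groups and was left out after the data were seen, the difference for *Slc38a5* was 0.26 in control and 1.05 in treated animals. *Slc38a3* also rose in treated animals from the first to the fifth hour (0.36, adjusted p = 0.0012) and from the fifth to the ninth (0.26, adjusted p = 0.031).

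**Figure D5:**
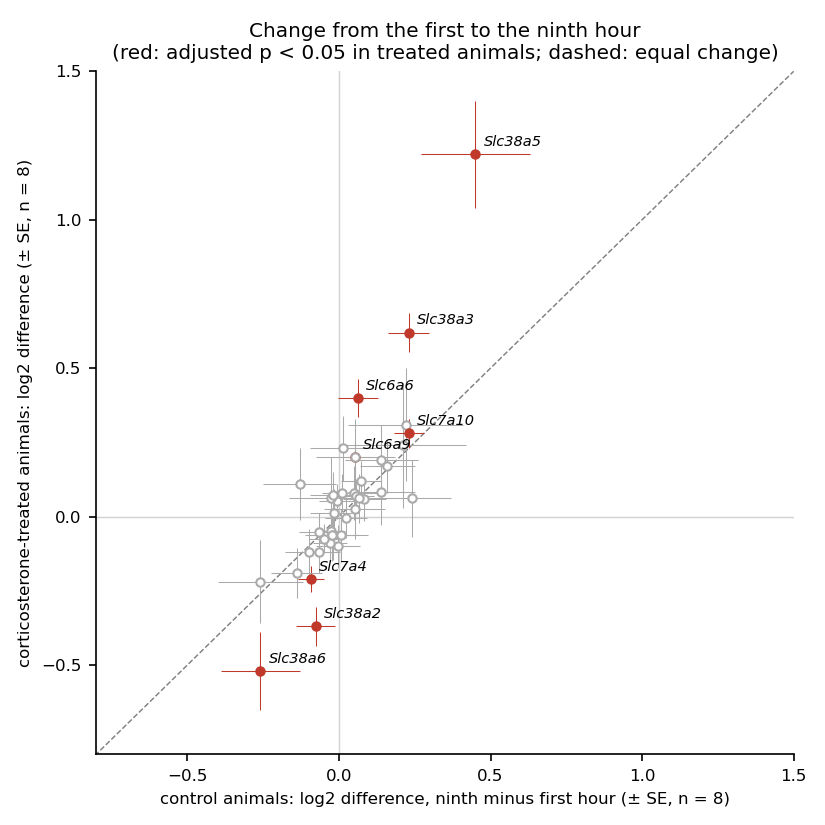
Log2 difference between the ninth and the first hour in control animals (x axis) and in corticosterone-treated animals (y axis), ± SE, n = 8 animals per group, for the 41 transporter genes with an intensity of 50 or more. The 8 genes that passed in treated animals are red and named, and *Slc38a5* (0.45 and 1.22), *Slc38a3* (0.23 and 0.62) and *Slc6a6* (0.063 and 0.40) lie above the dashed line of equal change, as would *Slc38a5* without 1 array of the first hour (0.26 and 1.05).

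Enzymes and carriers that work with these transporters were set beside them. Of 39 such genes, 13, 14 and 10 passed in the first, the fifth and the ninth hour, which is 33.3, 35.9 and 25.6% of the list beside 20.7, 20.8 and 15.5% of all named genes. *Prodh*, which breaks down proline, was higher by 0.70, 0.58 and 0.32 on the log2 scale (adjusted p = 2.4e-13, 1.1e-10 and 8.0e-05). *Glul*, the astrocytic glutamine synthetase, was higher by 0.37, 0.24 and 0.14 (adjusted p = 2.6e-08, 8.2e-05 and 0.03), and *Glud1*, glutamate dehydrogenase, lower by -0.15, -0.19 and -0.22 (adjusted p = 0.002, 1.4e-04 and 2.5e-05). *Phgdh*, the first enzyme of serine synthesis, was lower by -0.35, -0.49 and -0.35 (adjusted p = 4.2e-08, 1.4e-11 and 1.8e-07). The other serine synthesis genes of the list passed in no hour. *Psat1* lay at 0.085, -0.023 and -0.053, and *Psph* at 0.11, 0.11 and 0.15.

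The heavy chain *Slc3a2*, partner of most light chains above, passed in no hour (log2 fold change 0.10, 0.13 and 0.036, adjusted p = 0.23, 0.082 and 0.71). The GABA enzyme *Abat* was higher in all 3 hours (0.19, 0.21 and 0.22, adjusted p = 0.013, 0.005 and 0.0046). Of 12 genes of the amino acid response, 2, 2 and 4 were higher and 1, 1 and 0 lower in the 3 hours, beside the same 20.7, 20.8 and 15.5% of all named genes that passed in either direction. *Atf4* itself was higher in every hour (0.21, 0.25 and 0.23, adjusted p = 6.3e-04, 8.0e-05 and 3.9e-04). The transcription factor genes *Cebpb* and *Atf5* were higher in 2 hours each, *Cebpb* in the first and the ninth (0.23 and 0.19, adjusted p = 0.0045 and 0.023) and *Atf5* in the fifth and the ninth (0.13 and 0.14, adjusted p = 0.011 and 0.0095). *Sesn2*, a leucine sensor, was higher in the ninth hour (0.19, adjusted p = 0.038). *Asns*, asparagine synthetase, was the gene of this list that was lower, in the first and the fifth hour (-0.12 and -0.15, adjusted p = 0.039 and 0.0093). The rest of the list, *Atf3*, *Chac1*, *Trib3*, *Ddit3*, *Eif4ebp1*, *Nupr1* and *Stc2*, passed in no hour.

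Cell type markers moved in the same comparisons, and their part in the results was not tested. Of 8 astrocyte markers 3 were higher and 1 lower in the first hour, 3 and 3 in the fifth, and 2 and 2 in the ninth. The summed astrocyte signal of the first hour ran from 92576 to 120883 in control and from 113517 to 139036 in treated animals. Of 6 endothelial markers 2 were higher and 4 lower in the first hour, among them *Cldn5* (-0.36, adjusted p = 5.7e-05), which was higher in the ninth hour (0.24, adjusted p = 0.0083). Their summed signal of the first hour was 14546 to 18138 in control and 13530.1 to 15306 in treated animals, and that of the ninth hour 14766 to 17916 and 13341 to 16599. Of 6 oligodendrocyte markers 2 were higher and 2 lower in each hour, and of 6 microglial markers 3, 2 and 1 were lower. The summed oligodendrocyte signal had a median of 67195, 69345 and 69154 in control and of 59908, 56593 and 56984 in treated animals of the 3 hours, with ranges that overlapped in each (61854 to 77639.8 and 57177 to 76462 in the first). That of the microglial markers in the first hour was 14471 to 17141 in control and 12529.9 to 16707 in treated animals. Of 5 mural markers 1 was lower in each hour, and of the 6 choroid plexus and 5 meningeal fibroblast markers none passed in limma's test, with up to 3 meningeal and 0 choroid plexus markers at an unadjusted p under 0.05. Of 5 markers of monoamine neurons 1 was higher in each hour, *Ddc* in the first and the fifth and *Dbh* in the ninth. Their summed signal of the first hour ran from 1339.9 to 1659.9 in control and from 1719 to 3281 in treated animals, without overlap, and overlapped in the fifth and the ninth. Since *Ddc* alone passed as higher in the first hour, this sum need not stand for the whole list. Of 6 neuronal markers 1 was lower in the first hour, and 2 and 1 were higher in the fifth and ninth. Of 6 subfield markers 1 was higher and 1 lower in the first hour, none passed in the fifth (1 at an unadjusted p under 0.05), and 1 was higher in the ninth. The summed neuronal signal of the first hour was 174820.5 to 183922 in control and 165446 to 184512 in treated animals.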

How the data were processed

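Hippocampal RNA of single animals was hybridised to Agilent 8x60K two-color arrays. The deposited scanner files hold median spot and background intensities and processed signals per channel, and a deposited log2 table holds the authors' ratios (Cy5 over Cy3), which matched loess ratios with offset 50 (median absolute difference 0.000568). The log2 table and processed signals served as alternatives.

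Intensities were corrected by normexp, normalized by loess within and quantile between arrays in limma (version 3.58.1, R 4.3.3), after the study's methods. P-values came from data with offset 50 and limma's separate channel test in 1 fit over all 24 arrays (intraspot correlation 0.286), adjusted by Benjamini-Hochberg over 56605 probes. Fold changes, SE and intensities came from offset 0. Outlier spots and 3671 control spots were left out. Of the probes, 34566 had 1 gene symbol, 0 several and 22039 none, through RefSeq or else Ensembl accessions, and the names in use are those of GRCm38.p6. The number of arrays limits the precision.

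Values per group are given for up to 10 transporters per hour with the largest fold change among those significant, at an intensity of 50 or more and of 1 direction on 8 of 8 arrays, for those that differed between hours, and for 19 chosen by role. Other members were named to account for them, some genes are not reported here, and partner genes outside the 5 with the largest fold change per hour were named after their values were seen. Members and lists were chosen with earlier results of these data known. The test was checked on simulated data. Slide, offset, normalization, filters, probe choice and tests were varied as alternatives.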

Additional observations from a re-analysis of the deposited data

Results flagged for a closer look

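In 3 transporters the effect of corticosterone differed between the first and ninth hour by the test of the difference. The effect on *Slc38a3* changed by 0.39 on the log2 scale (adjusted p = 0.0028), that on *Slc6a6* by 0.33 (adjusted p = 0.01) and that on *Slc38a2* by -0.29 (adjusted p = 0.036). These passed under 14, 11 and 11 of 16 alternatives, with an adjusted p of up to 0.19, 0.36 and 0.53.

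In 6 of 78 groups of 8 arrays, 1 array stood apart from the other arrays of its hour by Dixon's test, where chance gives about 1 in 20. The log2 ratio of *Slc1a1* was -0.39 on 1 array of the first hour, with the nearest at 0.15, and that of *Slc38a7* was -0.21 on 1 array of that hour, with the nearest at 0.16. *Slc6a8* reached 0.22 on 1 array of the first hour (nearest 0.033) and -0.17 on 1 array of the ninth (nearest -0.041). The first-hour values of these 3 genes come from the same array, replicate 8, which had the highest median Cy5 spot signal (160.5) of the 24 arrays. Without it the mean log2 ratios of the first hour were 0.27 for *Slc1a1*, 0.28 for *Slc38a7* and -0.033 for *Slc6a8*, where all arrays gave 0.19, 0.22 and -0.0012. The part of that array's signal in these values was not tested. *Slc1a4* reached 0.79 on 1 array of the ninth hour (nearest 0.57), and *Slc7a10* was at -0.095 on 1 array of the fifth (nearest -0.24).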

How the results depend on the processing

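In the first hour 16 transporters passed, and 9 without slide 2. In the fifth hour 21 passed, 12 without slide 1, 9 without slide 3 and 13 with a separate fit for each hour. In the ninth hour 10 passed, 5 with offset 0 for p-values, and 2, 6 and 6 without slide 1, 2 and 3. The effect differed between the first and ninth hour for 3 genes, and for 0, 0 and 1 without slide 1, 2 and 3. The single gene that differed between these hours in control animals was lost without slide 1 and without slide 3 (0 in each). Other alternatives kept these 5 counts, and all alternatives the count of 8 in treated animals, within 1.5 times. A fit without a slide rests on fewer arrays.

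For the 50 significant values of single named genes, 765 of 857 recomputed values stayed significant in the same direction, 92 did not pass and none changed sign. *Slc1a4*, *Slc6a6* against control and *Slc7a14* passed under all 18 alternatives that kept the brightest probe, in each hour where they were significant. The second probe of *Slc6a6* passed in no hour, and that of *Slc7a14* not in the ninth. With the second brightest probe, the count among the 22 genes with 2 or more probes was 4 in the ninth hour where the brightest gave 2, 0 for the effect difference where it gave 1, and 1 for treated animals between hours where it gave 2. Signal over background set the limit for *Slc6a2* and *Slc6a4*, which were not well above background on any array.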
